A study of Mus musculus with 12 samples.

Results

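The genes described here are 10 genes of major histocompatibility complex (MHC) class I antigen presentation, chosen by symbol from a table of 56748 genes measured in mouse brain. They are Nlrc5, Psmb8, Psmb9, Tap1, Tap2, Tapbp, B2m, H2-K1, H2-D1 and H2-T23. All 10 symbols were found, and 9 of them passed a filter on low values that 19571 genes passed. Nlrc5 did not pass it and entered no test of the main fit. Poly(A) RNA came from brain tissue, described as whole brain, of 12 adult mice of the inbred C57BL/6 strain, in 3 arms of 4 mice with 2 females and 2 males each. LPS+DMA mice received lipopolysaccharide (LPS), a bacterial cell wall component, by daily injection into the abdominal cavity at 0.5 mg/kg for 7 days, together with daily N,N-dimethylacetamide (DMA), an organic solvent, at a dose that the sources used here do not state. LPS mice received the same LPS without DMA, and PBS mice received phosphate-buffered saline on the same schedule. Brains of all arms were taken on day 7. No arm received DMA without LPS, so a response to DMA alone was not measured. The series' title names a reduction of LPS neuroinflammation by DMA, and 3 comparisons follow from the design: LPS+DMA against LPS, LPS+DMA against PBS, and LPS against PBS.

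Class I molecules display peptides from inside a cell on its surface, where CD8 T cells and natural killer cells read them. Proteasomes cut proteins into peptides, the transporter TAP moves the peptides into the endoplasmic reticulum, and a loading complex places them on a heavy chain paired with beta-2-microglobulin. Interferons raise the transcription of most genes of the pathway, and in resting brain the pathway is low in neurons and higher in microglia and endothelium. In bulk tissue, fewer cells of a type and less RNA per cell cannot be told apart.

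Promoter sequences are shown for the 5 genes whose level was lower in LPS+DMA than in LPS past the threshold below, and for H2-T23, the nonclassical heavy chain, which did not pass. They are RefSeq windows in GRCm38.p6 of 300 bases, 5′ to 3′ on the strand of the gene, and 8 of the 10 genes matched an entry. Tap2 and Nlrc5 did not. Capitals mark every match, on both strands, of 2 letter patterns: GAAANNGAAA, the core of an interferon-stimulated response element, and GGGNNNNNCC, an NF-kB-type site. Overlapping matches merge into 1 run of capitals. The Psmb8 window holds neither pattern and has no capitals. The windows are chr17:34000298-34000597 on the minus strand for H2-K1 (the first of 2 entries), chr17:35262844-35263143 on the plus strand for H2-D1, chr2:122147437-122147736 on the plus strand for B2m, chr17:34197945-34198244 on the plus strand for Psmb8, chr17:34187281-34187580 on the minus strand for Psmb9, and chr17:36032652-36032951 on the minus strand for H2-T23.
H2-K1: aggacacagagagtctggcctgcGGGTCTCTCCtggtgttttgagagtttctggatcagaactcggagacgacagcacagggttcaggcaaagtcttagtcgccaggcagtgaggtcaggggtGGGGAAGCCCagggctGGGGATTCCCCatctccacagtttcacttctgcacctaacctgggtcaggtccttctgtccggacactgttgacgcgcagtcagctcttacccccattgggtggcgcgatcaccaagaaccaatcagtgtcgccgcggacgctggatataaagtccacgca
H2-D1: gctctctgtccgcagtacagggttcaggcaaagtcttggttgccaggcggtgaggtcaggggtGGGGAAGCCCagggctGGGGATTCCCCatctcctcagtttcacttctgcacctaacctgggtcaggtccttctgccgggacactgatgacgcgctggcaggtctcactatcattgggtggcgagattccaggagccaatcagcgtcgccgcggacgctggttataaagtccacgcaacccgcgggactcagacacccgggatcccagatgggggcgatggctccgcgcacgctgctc
B2m: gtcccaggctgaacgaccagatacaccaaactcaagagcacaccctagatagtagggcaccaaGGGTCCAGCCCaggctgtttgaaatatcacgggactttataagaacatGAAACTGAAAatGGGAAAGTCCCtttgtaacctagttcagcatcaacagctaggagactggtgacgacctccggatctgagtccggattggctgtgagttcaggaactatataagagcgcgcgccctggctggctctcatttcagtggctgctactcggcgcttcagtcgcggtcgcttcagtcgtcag
Psmb8: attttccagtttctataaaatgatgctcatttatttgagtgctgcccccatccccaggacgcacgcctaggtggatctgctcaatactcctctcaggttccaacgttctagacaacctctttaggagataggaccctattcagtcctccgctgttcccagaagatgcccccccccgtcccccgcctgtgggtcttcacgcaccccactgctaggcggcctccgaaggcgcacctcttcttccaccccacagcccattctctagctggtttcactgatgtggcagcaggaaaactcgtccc
Psmb9: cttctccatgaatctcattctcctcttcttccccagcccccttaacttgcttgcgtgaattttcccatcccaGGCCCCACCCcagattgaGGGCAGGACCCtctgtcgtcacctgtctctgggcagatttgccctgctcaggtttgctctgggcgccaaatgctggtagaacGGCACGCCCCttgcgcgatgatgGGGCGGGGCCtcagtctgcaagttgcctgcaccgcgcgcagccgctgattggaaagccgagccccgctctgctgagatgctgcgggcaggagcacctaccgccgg
H2-T23: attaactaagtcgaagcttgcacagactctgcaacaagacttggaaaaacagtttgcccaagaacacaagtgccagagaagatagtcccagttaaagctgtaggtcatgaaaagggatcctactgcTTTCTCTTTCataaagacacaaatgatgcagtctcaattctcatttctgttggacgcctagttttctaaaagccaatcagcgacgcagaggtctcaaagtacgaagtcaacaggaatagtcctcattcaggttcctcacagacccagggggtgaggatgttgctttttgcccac

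The H2-K1 and H2-D1 promoters were alike over 239 aligned bases, with 88.3% identity. Both hold the run GGGGATTCCCC, which is 2 overlapping NF-kB-type matches, and a further match GGGGAAGCCC upstream of it. The Psmb9 and Tap1 windows share 275 bases, chr17:34187306-34187580, because these genes are transcribed in opposite directions from neighbouring starts. An interferon-stimulated response element core was found in B2m (GAAACTGAAA) and on the other strand in H2-T23 (TTTCTCTTTC). Of the 32851 promoter windows in the table, 3.44% hold that pattern. The NF-kB-type pattern was found in H2-K1, H2-D1, B2m, Tap1 and Psmb9, but 50.8% of all windows hold it too. CCAAT, the box bound by NF-Y, was found on either strand in 7 of the 8 genes (all but Psmb8) and in 37.4% of windows. TGACG, the core of a CREB-type site, was found in H2-K1, H2-D1, B2m, Tap1 and Psmb9 and in 20.8% of windows. The matches of Tap1 and Psmb9 to all these patterns are the same genomic bases, within their shared stretch, so the 2 genes do not count separately. A match describes letters and does not show that a factor binds.

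Libraries held 27533386 to 41368753 reads assigned to genes, with a median of 34361828. Values are FPKM, which divides the fragments of a gene by its length and by a factor for the size of its library. Libraries differed in which tissue they contained. Gabra6, a receptor subunit of cerebellar granule cells, was at 114 FPKM in LPS female 1, 15.6 in LPS male 1, 90.5 in LPS male 2 and 74.6 in PBS female 1, and at 0 to 0.170 in the other 8 libraries. These 8 libraries held next to no RNA of such cells, although the material is described as whole brain. Choroid plexus markers summed to 23.01 to 499 FPKM in LPS+DMA, 253 to 2007 in LPS and 38.6 to 413 in PBS, and forebrain markers summed to 102 to 176 FPKM in LPS+DMA, 5.07 to 98.0 in LPS and 64.1 to 117 in PBS. Reads of nuclear ribosomal RNA made up 0.0389% of LPS female 2 and 2.88% to 9.79% of each other library. The labels tie each library to its own mouse. Tissue content therefore moved with the arms, and the results are also given without the 4 libraries with Gabra6.

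Levels per library are given below in the order female 1, female 2, male 1, male 2. Nlrc5, the transcriptional activator of class I genes, is ENSMUSG00000074151 on chromosome 8, 95160984-95253900 on the plus strand (GRCm39, as all gene positions here). It was at 0.0689, 0.158, 0.0755 and 0.0815 FPKM in LPS+DMA, at 0.399, 0.215, 0.479 and 0.229 FPKM in LPS, and at 0.312, 0.294, 0.0784 and 0.139 FPKM in PBS. Every LPS+DMA library lay below every LPS library, and the PBS libraries overlapped both arms, with the 2 PBS females above the 2 PBS males. These values rest on 18 to 155 reads per library. In a fit without the filter, over 35401 genes, the log2 change of Nlrc5 was -0.28 for LPS+DMA against LPS (SE 0.09, limma adjusted p = 0.154), -0.13 for LPS+DMA against PBS (adjusted p = 0.716) and 0.14 for LPS against PBS (adjusted p = 0.741), so none passed.

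**Figure D1:**
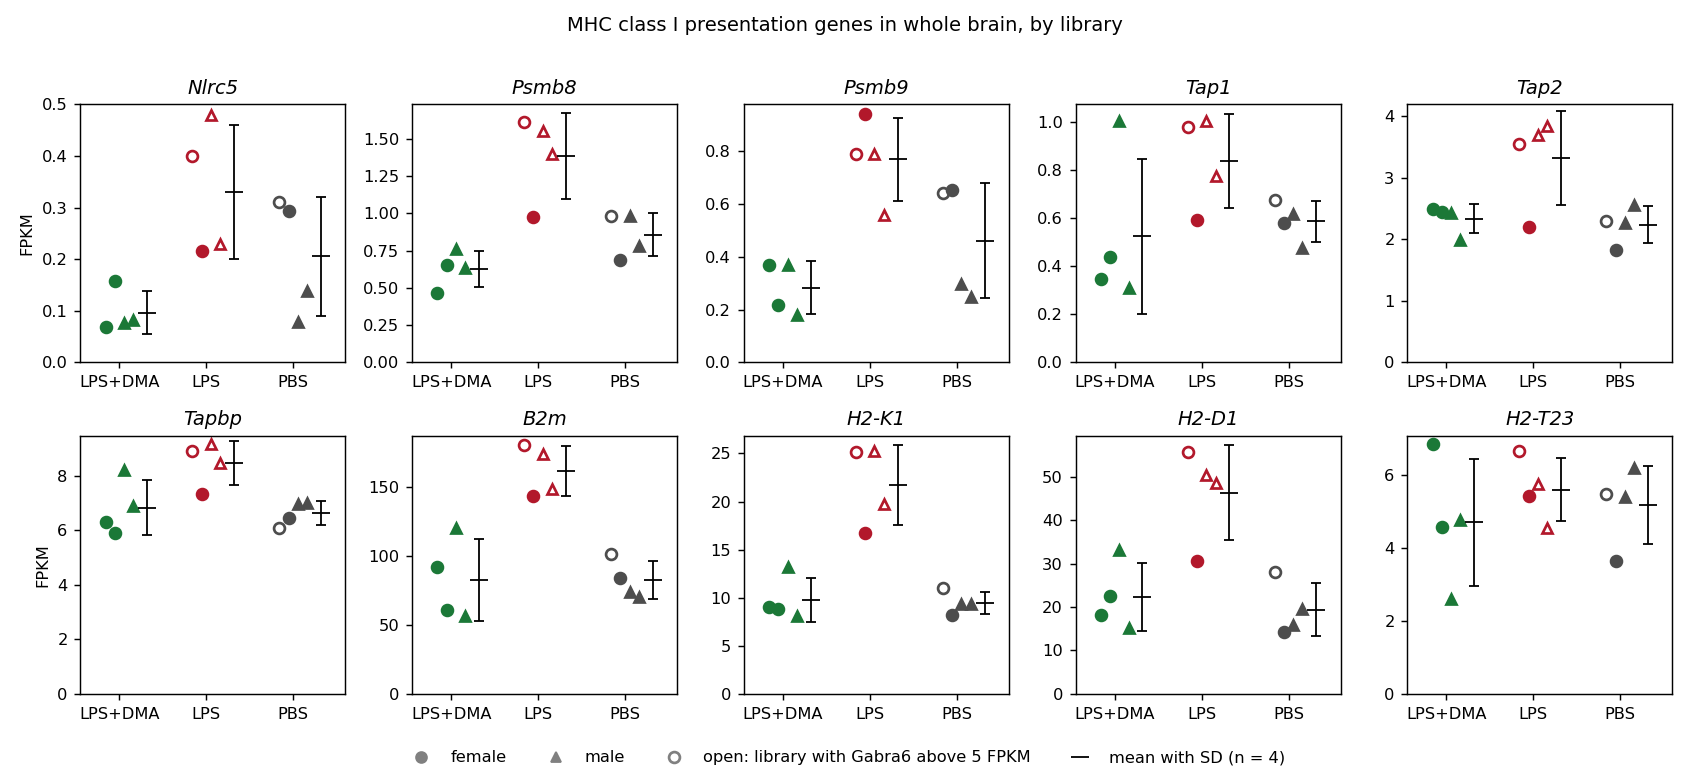
FPKM of the 10 class I presentation genes in each of 12 brain libraries, by arm. Circles are females and triangles males, open symbols are libraries with Gabra6 above 5 FPKM, and bars show the mean and SD of 4 libraries; for H2-K1 and B2m all LPS libraries lie above all others, and for H2-T23 the arms overlap.

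Psmb8 and Psmb9 encode catalytic subunits that replace constitutive ones to form the immunoproteasome, which cuts peptides suited to class I molecules. Psmb8 is ENSMUSG00000024338 on chromosome 17, 34416695-34420428 on the plus strand. It was at 0.468, 0.656, 0.758 and 0.637 FPKM in LPS+DMA, at 1.61, 0.977, 1.55 and 1.40 FPKM in LPS, and at 0.980, 0.689, 0.984 and 0.781 FPKM in PBS. All LPS+DMA libraries were below all LPS libraries, and LPS female 2 was within the range of PBS. Psmb8 fell to 0.630 ± 0.121 FPKM in LPS+DMA, against 1.39 ± 0.287 FPKM in LPS (SD, n = 4 each; log2 change of FPKM + 1 -0.54, SE 0.13, adjusted p = 0.0279). Psmb9, ENSMUSG00000096727 on chromosome 17, 34400961-34406738 on the minus strand, was at 0.368, 0.219, 0.367 and 0.179 FPKM in LPS+DMA, at 0.790, 0.937, 0.788 and 0.558 FPKM in LPS, and at 0.641, 0.652, 0.298 and 0.246 FPKM in PBS. It fell to 0.283 ± 0.0989 FPKM in LPS+DMA, against 0.768 ± 0.157 FPKM in LPS (log2 change -0.46, SE 0.12, adjusted p = 0.0412). As for Nlrc5, the PBS females lay above the PBS males, and no LPS+DMA library reached the lowest LPS library. Psmb9 had 17 to 110 reads per library and Psmb8 54 to 200. A pseudocount of 1 shrinks the change of such low genes; with 0.1 the changes were -1.20 for Psmb9 and -1.02 for Psmb8.

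The third inducible subunit, Psmb10, did not pass. It averaged 11.99 ± 0.893 FPKM in LPS+DMA, 12.5 ± 1.51 in LPS and 13.7 ± 1.54 in PBS (SD, n = 4 each; adjusted p = 0.820 for LPS+DMA against LPS). Within a library, the ratio of an inducible subunit to the one it replaces does not depend on how the library was scaled. Psmb8 stood at 0.956%, 1.34%, 1.40% and 1.73% of Psmb5 in LPS+DMA, at 3.05%, 1.82%, 3.24% and 2.86% in LPS, and at 2.14%, 1.37%, 2.05% and 1.77% in PBS. Psmb9 stood at 1.07%, 0.641%, 0.702% and 0.577% of Psmb6 in LPS+DMA, at 1.72%, 2.57%, 1.90% and 1.30% in LPS, and at 1.75%, 1.82%, 0.799% and 0.709% in PBS. Both ratios were lower in every LPS+DMA library than in every LPS library, by 1.01 and 1.33 on the log2 scale. The exact two-sided permutation test gave p = 0.0286 for each, the smallest that 4 against 4 libraries can give, and adjusted p = 0.129 over the 9 ratio tests, so neither passed. With 9 tests adjusted together, 2 ratios at the smallest p cannot pass unless further ratio tests reach it too. Not passing therefore says little here. Psmb10 stood at a geometric mean of 40.6% of Psmb7 in LPS+DMA, 42.6% in LPS and 52.0% in PBS, with a log2 difference of -0.07 for LPS+DMA against LPS (exact permutation p = 0.857).

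**Figure D2:**
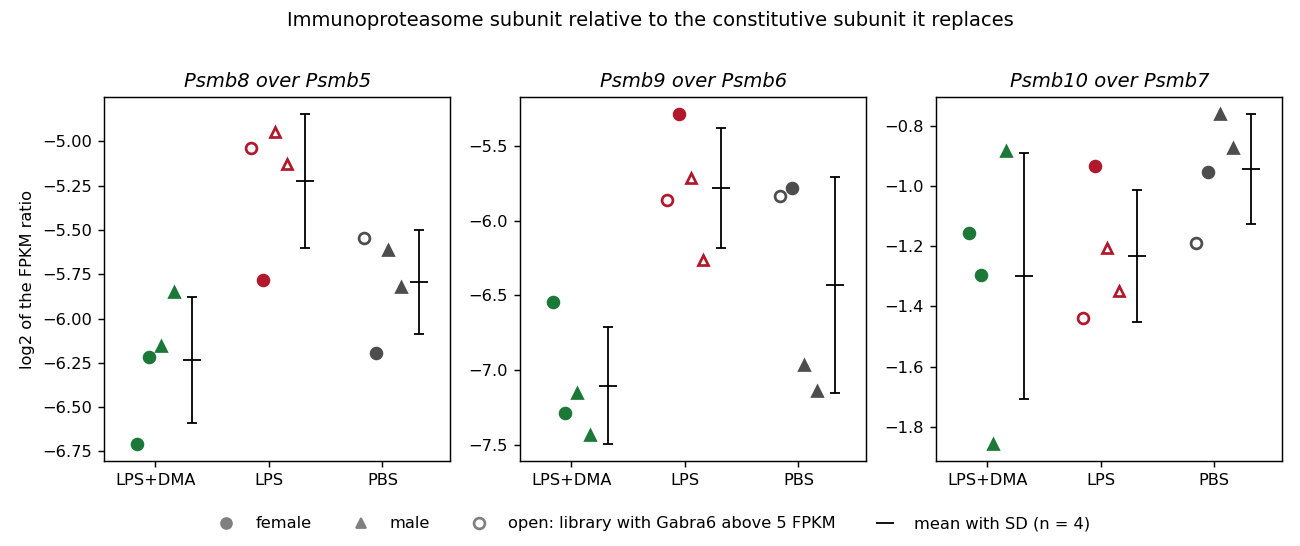
Log2 of the FPKM ratio of each immunoproteasome subunit to the constitutive subunit it replaces, per library and arm, with the mean and SD of 4 libraries. The LPS+DMA libraries lie below the LPS libraries for Psmb8 over Psmb5 and Psmb9 over Psmb6, and the arms overlap for Psmb10 over Psmb7.

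Tap1 and Tap2 encode the chains of the peptide transporter, and Tapbp encodes tapasin, which bridges the transporter and the heavy chain. Tap1, ENSMUSG00000037321 on chromosome 17, 34406527-34416199 on the plus strand, was at 0.348, 0.438, 1.00 and 0.309 FPKM in LPS+DMA, at 0.980, 0.591, 1.01 and 0.774 FPKM in LPS, and at 0.677, 0.579, 0.618 and 0.476 FPKM in PBS. LPS+DMA male 1 was within the range of the LPS libraries, and the other 3 LPS+DMA libraries were below all LPS libraries. Tap2, ENSMUSG00000024339 on chromosome 17, 34422501-34435295 on the plus strand, was at 2.49, 2.44, 2.43 and 1.98 FPKM in LPS+DMA, at 3.55, 2.20, 3.70 and 3.84 FPKM in LPS, and at 2.31, 1.84, 2.27 and 2.55 FPKM in PBS. The 3 high Tap2 libraries are the LPS libraries with Gabra6, and LPS female 2 lay within the other arms. Tapbp, ENSMUSG00000024308 on chromosome 17, 34134873-34148266 on the plus strand, was at 6.29, 5.92, 8.24 and 6.90 FPKM in LPS+DMA, at 8.92, 7.33, 9.18 and 8.48 FPKM in LPS, and at 6.10, 6.47, 6.99 and 6.99 FPKM in PBS. Every LPS library was above every PBS library for Tapbp, while LPS+DMA male 1 lay among the LPS libraries. For LPS+DMA against LPS none of the 3 passed: the log2 change was -0.29 for Tap1 (adjusted p = 0.243), -0.36 for Tap2 (adjusted p = 0.131) and -0.28 for Tapbp (adjusted p = 0.0979).

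B2m, the light chain shared by all class I molecules, had the highest level of the 10 genes per length in every arm. It is ENSMUSG00000060802 on chromosome 2, 121978167-121983564 on the plus strand. B2m was at 91.7, 60.9, 120 and 56.5 FPKM in LPS+DMA, at 180, 143, 173 and 148 FPKM in LPS, and at 101, 84.2, 73.9 and 70.2 FPKM in PBS. Every LPS library was above every library of the other arms, and LPS+DMA male 1 was the highest outside LPS. B2m fell to 82.3 ± 29.8 FPKM in LPS+DMA, against 161 ± 18.3 FPKM in LPS (SD, n = 4 each; log2 change -1.02, SE 0.22, adjusted p = 0.0240).

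The classical heavy chains H2-K1 and H2-D1, which present peptides to CD8 T cells, were lower in the same comparison. H2-K1 is ENSMUSG00000061232 on chromosome 17, 34214991-34219321 on the minus strand, and H2-D1 is ENSMUSG00000073411 on chromosome 17, 35481706-35486475 on the plus strand. H2-K1 was at 9.07, 8.78, 13.2 and 8.14 FPKM in LPS+DMA, at 25.2, 16.8, 25.2 and 19.7 FPKM in LPS, and at 11.0, 8.19, 9.38 and 9.32 FPKM in PBS. The LPS libraries did not overlap either other arm, and H2-K1 fell to 9.80 ± 2.30 FPKM in LPS+DMA, against 21.7 ± 4.19 FPKM in LPS (log2 change -1.08, SE 0.17, adjusted p = 0.0186). H2-D1 was at 18.2, 22.6, 33.2 and 15.2 FPKM in LPS+DMA, at 55.8, 30.6, 50.3 and 48.4 FPKM in LPS, and at 28.0, 14.3, 15.8 and 19.6 FPKM in PBS. LPS+DMA male 1 was above LPS female 2 for H2-D1, and the other libraries of the 2 arms did not overlap. H2-D1 fell to 22.3 ± 7.88 FPKM in LPS+DMA, against 46.3 ± 10.9 FPKM in LPS (log2 change -1.05, SE 0.27, adjusted p = 0.0380).

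H2-T23 encodes the heavy chain of Qa-1, a nonclassical molecule read by the natural killer receptor chain CD94. It is ENSMUSG00000067212 on chromosome 17, 36340665-36343747 on the minus strand. It was at 6.87, 4.57, 2.61 and 4.78 FPKM in LPS+DMA, at 6.67, 5.44, 5.78 and 4.56 FPKM in LPS, and at 5.50, 3.65, 5.41 and 6.19 FPKM in PBS. The 3 arms overlapped, and the lowest library was LPS+DMA male 1, which was the highest library of its arm for B2m, H2-K1 and H2-D1. The log2 change for LPS+DMA against LPS was -0.26 (95% interval -0.73 to 0.22, adjusted p = 0.466). In LPS, where the level per length ran from B2m through H2-D1, H2-K1, Tapbp, H2-T23, Tap2, Psmb8, Tap1 and Psmb9 to Nlrc5, neighbours from B2m to Psmb8 had ranges over libraries that did not meet, while Psmb8 and Tap1, and Tap1 and Psmb9, overlapped.

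In LPS+DMA against LPS, 5 of the 9 tested genes passed as lower (H2-K1, B2m, Psmb8, H2-D1 and Psmb9) and 0 as higher, where 3.88% of all 19571 tested genes passed as lower and 5.79% as higher. The median log2 change of the 9 tested genes was -0.46, beside 0.01 over all tested genes. The all-gene calls were 1133 higher and 759 lower, and became 444 higher and 1602 lower when libraries were scaled to a common total (TPM), a scaling that put the median log2 change of all genes at -0.12 and under which 7 of the 9 genes passed. All 4 LPS+DMA libraries lay below all 4 LPS libraries for H2-K1, B2m, Psmb8 and Psmb9 of the tested genes, where 5.98% of tested genes did so and 6.26% lay fully above. By sex, H2-K1 gave -1.12 in females and -1.03 in males, and H2-D1 gave -0.99 in females and -1.10 in males. H2-T23 gave -0.085 in females and -0.43 in males, and Tap2 gave -0.14 in females and -0.58 in males. The change differed between sexes for 0 of the 9 genes and for 0% of all tested genes, and 1008 of all tested genes and 0 of the 9 had an unadjusted p under 0.05 for that difference.

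**Figure D3:**
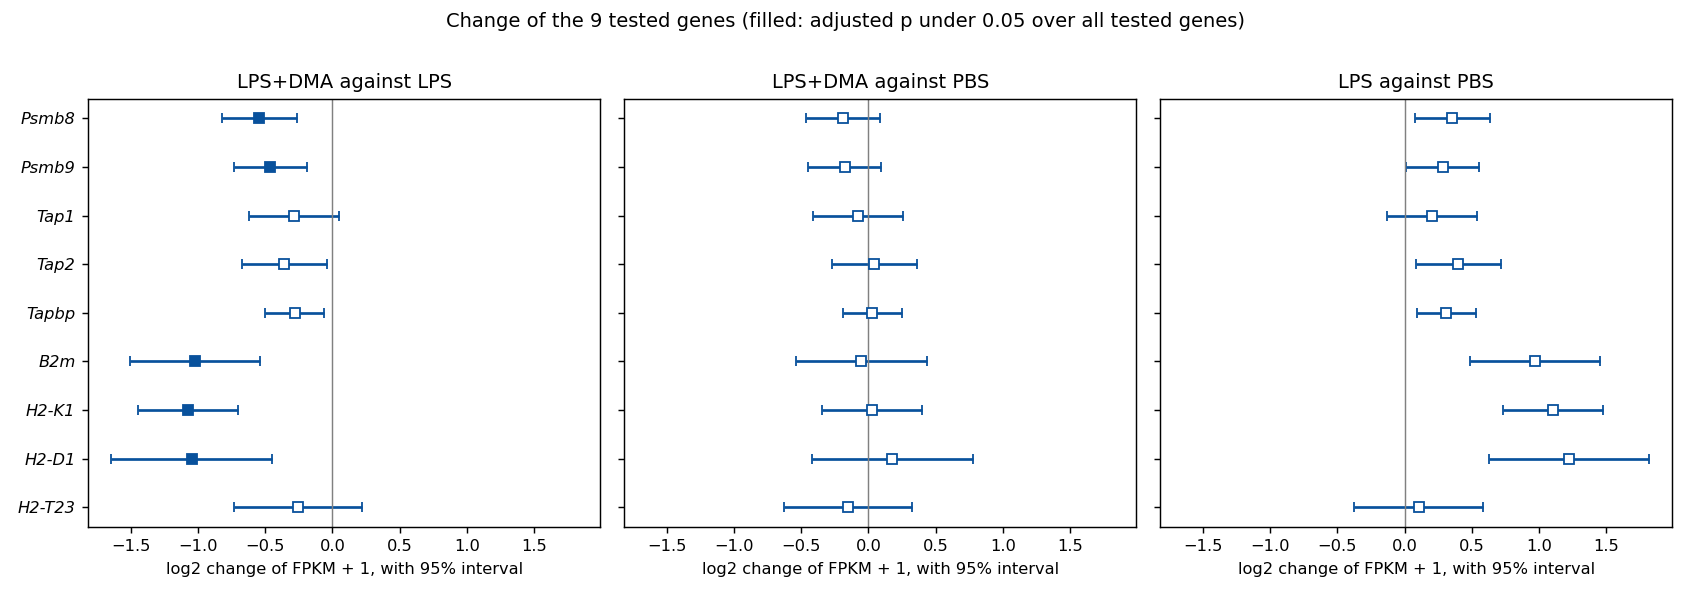
Log2 change of FPKM + 1 with its 95% interval for the 9 tested genes in 3 comparisons, from 1 limma fit over 12 libraries. Filled squares passed an adjusted p of 0.05; these are 5 genes in LPS+DMA against LPS, from -1.08 for H2-K1 to -0.46 for Psmb9.

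These calls rested on the LPS libraries. Without LPS female 1, LPS male 1 or LPS male 2, the libraries with Gabra6, 0 of the 9 genes passed; the change of H2-K1 was then -0.97, -1.01 and -1.14 (adjusted p = 0.0784, 0.0783 and 0.0523). Over all tested genes the calls dropped in the same fits to 11, 7 and 22, beside 1892 with all libraries. Leaving out LPS female 2 gave 6 calls, beside 3465 over all tested genes. Leaving out LPS+DMA male 1 also gave 6, beside 1506. Without LPS+DMA female 1, female 2 or male 2 there were 2 calls each time, H2-K1 among them in each. Over all tested genes these fits gave 1228, 1071 and 1119 calls. Without PBS male 1 or male 2 there were 3 calls, beside 1166 and 1052 over all tested genes. Without all 4 libraries with Gabra6, which leaves 1 LPS library assumed to vary like the others, H2-K1 gave -0.83, B2m -0.86, H2-D1 -0.60, Psmb9 -0.52 and Psmb8 -0.35, and 0 passed (adjusted p = 1). That remaining library, LPS female 2, held no Gabra6 reads and was above all 4 LPS+DMA libraries for H2-K1, B2m, Psmb8 and Psmb9, and above all 4 PBS libraries for H2-K1, H2-D1, B2m, Tapbp and Psmb9. It was not free of other tissue differences. Its choroid plexus marker Ttr was at 1244 FPKM, against 1.91 to 416 FPKM in LPS+DMA and 0.576 to 327 FPKM in PBS. PBS female 1, the PBS library with Gabra6, was the highest of its arm for H2-K1, H2-D1 and B2m, and below every LPS library for all 3. With the forebrain minus cerebellum score as a covariate H2-K1 gave -0.78 and H2-D1 -0.38, and with choroid plexus and red blood cell scores -0.77 and -0.77, with 0 calls in both. Over all tested genes 0 passed with either covariate set, 5 without the 4 libraries with Gabra6, and 5 in a fit of only the LPS+DMA and LPS libraries. For the 9 genes the fit of these libraries alone gave 0 calls (adjusted p = 0.0724 for H2-K1), and a fit without the filter on low values gave 1, H2-K1, beside 83 over all genes.

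In LPS+DMA against PBS, the levels of the 9 tested genes overlapped between the arms. None passed, where 0.0102% of tested genes passed as lower and 0% as higher, and 0 of the 9 had an unadjusted p under 0.05 beside 11.4% of all tested genes. No gene of the 9 separated the arms, where 3.71% of tested genes lay fully higher and 2.93% fully lower in LPS+DMA. The log2 changes ran from -0.19 for Psmb8 to 0.18 for H2-D1, on a scale that shrinks low genes. With a pseudocount of 0.1 Psmb8 gave -0.40 (adjusted p = 0.537) and Psmb9 -0.50 (adjusted p = 0.570), and the ratio of the mean FPKM in LPS+DMA to that in PBS was 0.733 for Psmb8 and 0.616 for Psmb9. For H2-K1 the change was 0.03 with a 95% interval of -0.34 to 0.40, for B2m -0.05 with -0.54 to 0.43, and for H2-D1 0.18 with -0.42 to 0.77. The upper bounds reach 0.40 to 0.77, so these data do not show equal levels. The sex difference passed for 0 of the 9 and for 0% of all tested genes (1110 genes and 0 of the 9 at an unadjusted p under 0.05); H2-T23 gave 0.27 in females and -0.57 in males (adjusted p = 0.838 for the difference).

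In LPS against PBS, the heavy chains and B2m had higher means in LPS without passing the threshold. H2-K1 averaged 21.7 ± 4.19 FPKM in LPS and 9.48 ± 1.16 in PBS (log2 change 1.10, SE 0.17, adjusted p = 0.117). H2-D1 averaged 46.3 ± 10.9 FPKM in LPS and 19.4 ± 6.12 in PBS (log2 change 1.22, SE 0.27, adjusted p = 0.218), and B2m 161 ± 18.3 in LPS and 82.3 ± 13.7 in PBS (log2 change 0.97, SE 0.22, adjusted p = 0.239). All 4 LPS libraries were above all 4 PBS libraries for these 3 genes and for Tapbp (log2 change 0.31, adjusted p = 0.323), where 3.59% of tested genes were so placed and 3.3% the other way. The other 5 tested genes gave log2 changes of 0.10 for H2-T23 to 0.40 for Tap2, with adjusted p of 0.347 to 0.897. Across all tested genes 0.0102% passed as higher and 0% as lower; at an unadjusted p under 0.05 there were 7 of the 9 genes and 11.0% of all tested genes. LPS female 2 was the library lowest in ribosomal RNA and the only LPS library without Gabra6 reads. Leaving it out makes every remaining LPS library one with cerebellar signal. In that fit 4 of the 9 passed as higher: H2-K1 (1.21, adjusted p = 0.0052), H2-D1 (1.41, adjusted p = 0.0203), B2m (1.04, adjusted p = 0.0446) and Tap2 (0.53, adjusted p = 0.0459), while 672 of all tested genes passed. Without the 4 libraries with Gabra6, which leaves 1 LPS library, the 9 changes stayed above 0, with a median of 0.22 beside 0.35 with all libraries. The median was 0.28 with the forebrain minus cerebellum covariate and 0.31 with choroid plexus and red blood cell covariates. With either covariate set 0 of the 9 and 0 of all tested genes passed. The sex difference passed for 0 of the 9 and 0% of tested genes (491 genes and 0 of the 9 at an unadjusted p under 0.05). This comparison and LPS+DMA against LPS use the same LPS libraries, so their opposite signs are not independent.

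Across the 12 libraries the 9 tested genes were mostly high or low together, as the heat map shows. The mean z score of log2(FPKM + 1) was -0.54, -0.79, -0.03 and -0.98 in LPS+DMA, 1.39, 0.34, 1.33 and 0.85 in LPS, and -0.06, -0.69, -0.41 and -0.42 in PBS. LPS female 1 and LPS male 1 had all 9 genes above their own means, while LPS+DMA female 2 and male 2 had 0. The mean Pearson correlation over the 36 pairs of genes was 0.616 over 12 libraries, with 34 pairs above 0, and 0.323 once each arm's mean was removed; the points share libraries and arms. H2-T23 was least tied to the rest, with a mean correlation of 0.106, and -0.22 within arms. H2-K1 was closest to H2-D1 (r = 0.952), then to the chemokine gene Ccl5 (0.948) and to Lgmn (0.943), which encodes a lysosomal protease. The coding genes closest to the mean of the 9 were Cd164 (0.969), Lgmn (0.936), Acadl (0.927), Park7 (0.927) and Trpv4 (0.925).

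**Figure D4:**
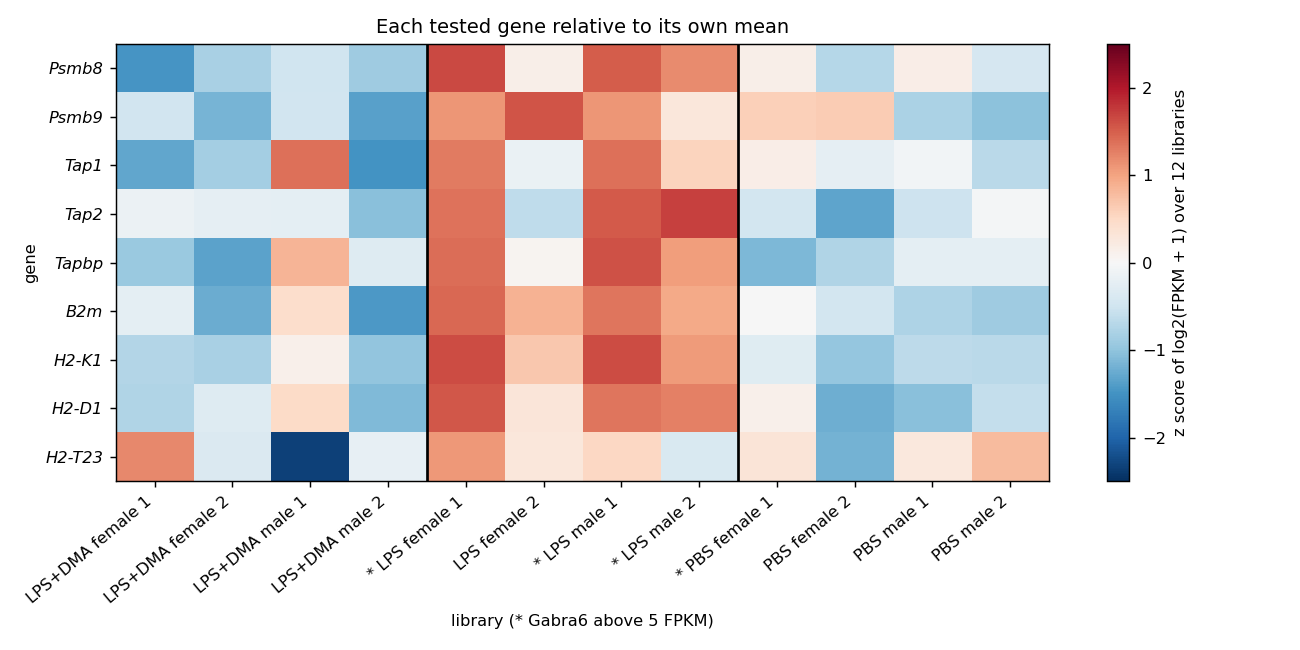
Z score of log2(FPKM + 1) of each of the 9 tested genes over 12 libraries, with arms separated by lines and libraries with Gabra6 marked by a star. Mean z scores over the 9 genes are 0.34 to 1.39 in LPS libraries and at most -0.03 elsewhere, and H2-T23 has its lowest value in LPS+DMA male 1.

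Reads of close relatives may be shared between these genes. Of 50-base windows of the longest coding transcript (GENCODE vM21), 28.8% in H2-T23, 14.3% in H2-D1 and 8.79% in H2-K1 also occur in other genes; 6.94% of H2-K1 windows occur in H2-D1. Tap1 and Tap2 share 0.861% and 0.737% of theirs with each other, and B2m, Psmb8, Psmb9 and Nlrc5 share 0. Tap1 and Psmb9 overlap by 212 bases on opposite strands. Tapbp overlaps Zbtb22 (6.07 to 16.5 FPKM) by 3422 bases on the same strand, where a stranded preparation would not separate them. B2m lies opposite Patl2 (at most 0.504 FPKM), and H2-T23 lies opposite A930015D03Rik (1.36 to 2.58 FPKM). The labels describe both a stranded and an unstranded preparation without saying which was used, so single levels of overlapping genes are uncertain.

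Of the other class I heavy chains, 13 of 18 listed genes were tested, and 2 were lower in LPS+DMA than in LPS past the threshold (0 higher, median log2 change -0.40). For this list and those below, the shares over all tested genes in this comparison were 3.88% lower and 5.79% higher. Hfe, a regulator of iron uptake with a class I fold, fell to 0.872 ± 0.303 FPKM in LPS+DMA, against 2.30 ± 0.329 FPKM in LPS (log2 change -0.83, adjusted p = 0.0186). H2-T22, a nonclassical chain near H2-T23, fell to 6.10 ± 1.12 FPKM in LPS+DMA, against 9.41 ± 0.690 FPKM in LPS (log2 change -0.56, adjusted p = 0.0273). Of the rest, H2-K2 gave -0.78 (adjusted p = 0.0547) and H2-Q4 -0.67 (adjusted p = 0.0939). Other genes of peptide loading and trimming stayed below the threshold, with 0 of 11 called and a median of 0.08; the closest was Bcap31, an endoplasmic reticulum export factor, at -0.44 (adjusted p = 0.0631). The constitutive proteasome core had 0 of 14 called, with a median of -0.10. Psmb10, the proteasome activator genes Psme1 and Psme2 and the assembly factor Pomp had 0 of 4 called. The counts for the loading and proteasome lists depend on scaling: with TPM scaling, 1 loading gene passed as lower, and so did 1 of the 4 genes around Psmb10. Over all 19571 tested genes, 1602 passed as lower with that scaling.

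Of the factors that act on class I promoters, 16 of 17 were tested in LPS+DMA against LPS, with 1 higher and 1 lower. Irf9, the DNA-binding subunit of the complex that carries the type I interferon response, fell to 1.65 ± 0.223 FPKM in LPS+DMA, against 2.63 ± 0.355 FPKM in LPS (log2 change -0.45, adjusted p = 0.0499). Nfyb, a subunit of the CCAAT-binding factor, rose to 9.86 ± 1.41 FPKM in LPS+DMA, against 5.99 ± 1.77 FPKM in LPS (log2 change 0.66, adjusted p = 0.0278). Irf1, an activator of Tap1 and Psmb9, averaged 1.44 ± 0.439 FPKM in LPS+DMA and 1.53 ± 0.170 in LPS (log2 change -0.07, adjusted p = 0.784). The interferon receptor and signalling genes had 0 of 8 called, with Ifngr1 at -0.55 (adjusted p = 0.0555). Ifng and Ifnb1 had 0 reads in all 12 libraries, which allows up to 3 reads in each.

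Of 18 tested genes known to be induced by interferon, 9 were lower in LPS+DMA than in LPS past the threshold and 0 higher. Over all tested genes 3.88% passed as lower and 5.79% as higher. All 18 changes were below 0, with a median of -0.61. Isg15, a ubiquitin-like modifier, fell to 1.34 ± 0.274 FPKM in LPS+DMA, against 5.17 ± 1.71 FPKM in LPS (log2 change -1.37, adjusted p = 0.0172). Bst2, a membrane tether of budding viruses, gave -1.10 (adjusted p = 0.0172), and Ifit3, Ifi27, Gbp3, Ifitm3, Irgm2, Gbp2 and Igtp gave -1.04 to -0.62 (adjusted p of 0.0186 to 0.04996). As for the class I genes, 0 of the 18 passed without LPS female 1, LPS male 1 or LPS male 2, and 0 without the 4 libraries with Gabra6, where 15 of the 18 were still below 0. In LPS against PBS all 18 changes were above 0, with a median of 0.40, and 0 passed, beside 2 of all tested genes. Without LPS female 2, the only LPS library without Gabra6 reads, there were 8, beside 672 of all tested genes. In LPS+DMA against PBS 0 genes of any of these lists passed.

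**Figure D5:**
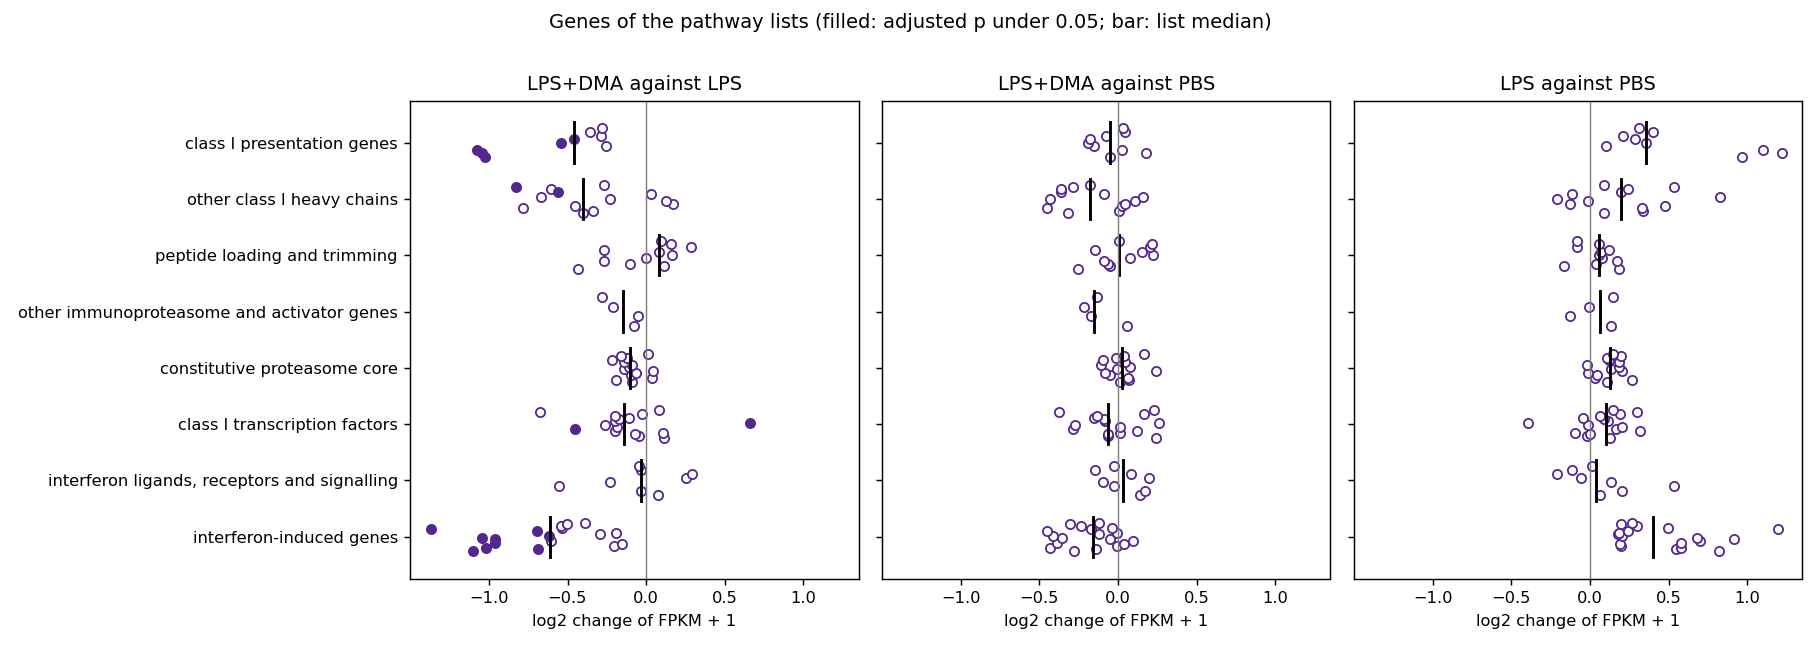
Log2 change of FPKM + 1 of every tested gene in the class I set and 7 lists around it, in 3 comparisons; filled points passed an adjusted p of 0.05 and bars mark list medians. In LPS+DMA against LPS the medians are -0.46 for the class I genes and -0.61 for interferon-induced genes, and 0.08 for peptide loading and trimming.

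Genes of the cells that read class I had few reads. None of the 7 receptor genes passed the filter; Cd8a had at most 16 reads and Klrd1, which encodes CD94, at most 16, while the inhibitory receptor gene Pirb reached 67 reads. Of 8 T and NK cell markers, 6 in LPS+DMA, 6 in LPS and 7 in PBS stayed under 0.5 FPKM in all 4 libraries, and their sum was 1.08 to 6.02 FPKM in LPS+DMA, 2.49 to 3.44 in LPS and 0.291 to 2.20 in PBS. Of the 2 tested markers of this list, 1 was higher and 1 lower in LPS+DMA than in LPS and 0 passed. Cd4, a T cell co-receptor, gave 1.03 (adjusted p = 0.173), and Trac, a T cell receptor chain, gave -0.78 (adjusted p = 0.118).

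Markers of several cell types moved with the same comparison. All 10 microglial markers had log2 changes below 0 in LPS+DMA against LPS, 4 of them past the threshold, and their sum was 51.1 to 99.7 FPKM in LPS+DMA, 121 to 166 in LPS and 86.4 to 108 in PBS. Tmem119 and P2ry12 gave -0.66 and -0.64 (adjusted p = 0.106 and 0.241), and were lowest in LPS+DMA male 1 at 2.07 and 1.70 FPKM. That library had the highest B2m, H2-K1 and H2-D1 of its arm. Endothelial markers summed to 128 to 179 FPKM in LPS+DMA, 173 to 205 in LPS and 118 to 140 in PBS, with 1 of 10 lower past the threshold. All 8 oligodendrocyte markers had log2 changes below 0, with a median of -1.17 and 1 past the threshold, and summed to 442 to 1050 FPKM in LPS+DMA, 1105 to 2100 in LPS and 561 to 1542 in PBS. All 5 red blood cell markers were below 0 as well, with a median of -1.51 and 0 past the threshold. Of the choroid plexus markers, 6 of 10 passed as lower, with Ttr at -5.62 (adjusted p = 0.0267). Forebrain markers went the other way, with 8 of 8 above 0, 7 past the threshold and a median of 2.18. All 8 cerebellum markers were below 0, with a median of -3.10 and 0 past the threshold. Of 8 neuron markers 4 passed as higher and 2 as lower, and of 8 astrocyte markers 1 passed each way. Border macrophage markers had 0 of 6 called, and neutrophil markers 0 of 3 tested. The part of microglial, endothelial and oligodendrocyte content in the class I levels was not tested.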

How the data were processed

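The authors deposited a table of FPKM values per gene for 12 libraries, with gene names, lengths and GRCm39 coordinates. The submitters' processing notes list STAR, HISAT2 2.2.1, fastp, GATK, featureCounts 2.0.6, edgeR 4.0.16 and DESeq2 1.42.0 and say nothing of their roles. FPKM times gene length came out as whole reads, within 0.1, for 100% of values of up to 1000 reads, which gave depth and read counts for description and for voom. Over the 66 pairs of libraries, chi-square per degree of freedom was at least 24.8, so all pairs differed beyond sampling noise.

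Genes with at least 0.5 FPKM in at least 2 libraries (19571) were fitted as log2(FPKM + 1) with limma 3.58.1 in R 4.3.3, with a mean-variance trend, robust moderation, arm and sex as terms, and all 12 libraries in 1 fit. This scale understates the change of low genes. P-values were adjusted by Benjamini-Hochberg over all tested genes, with a threshold of 0.05. For differences between sexes, each arm had a term per sex. Ratios used exact permutation tests over libraries. The fit was tested on simulated data. A gene of the lists and a promoter pattern are not reported here. Members, gene lists and alternatives were chosen with earlier results of these data known. Named genes were all members, genes of the lists that passed or had the smallest p, the genes most correlated with the members, and leading markers. Alternatives were pseudocounts of 0.1 and 0.5, filters, scaling, variance model, library weights, voom, terms and libraries in the fit, and each library left out.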

Additional observations from a re-analysis of the deposited data

Results flagged for a closer look

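Of 39 groups of 4 libraries examined for a library far from the rest, 2 stood out, and chance flags about 1 in 20 such groups. Tap2 was at 1.98 FPKM in LPS+DMA male replicate 2, against 2.43 to 2.49 FPKM in the other 3 LPS+DMA libraries. Nlrc5 was at 0.158 FPKM in LPS+DMA female replicate 2, against 0.0689 to 0.0815 FPKM in the other 3 LPS+DMA libraries, a value that rests on 37 reads.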

How the results depend on the processing

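In LPS+DMA against LPS the directions of the 9 tested genes were below 0 under the alternatives run, except H2-T23 with choroid plexus and red blood cell covariates (0.48) and Tap2 without the 4 libraries with cerebellar signal (0.0412). The count of genes passing, 5 as reported, was 1 with no filter on low values, 3 with a filter of 1 FPKM in 4 libraries (which leaves 6 of the genes tested), 8 with library weights, and 0 in fits of only the 2 arms, with the forebrain minus cerebellum covariate, with the choroid plexus and red blood cell covariates, without libraries with cerebellar signal, in females only and in males only. Leaving out each library in turn gave 0 to 6. In LPS against PBS the count, 0 as reported, was 6 with library weights, where 2852 of all tested genes passed, and 0 to 4 with a library left out. All tested genes passing in LPS+DMA against LPS, 1892 as reported, numbered 83 with no filter, 5 in fits of only the 2 arms, 4152 with library weights, 3002 with voom, and 7 to 3465 with a library left out, and 0 with either covariate set and in females only, 5 without libraries with cerebellar signal and 663 in males only. With the filter of 1 FPKM in 4 libraries 2063 of 14662 tested genes passed. The cause of these shifts was not tested. The median log2 change of all genes in LPS+DMA against LPS was 0.01 as reported, -0.12 with TPM scaling and -0.18 with voom.

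H2-T23 in LPS against PBS and the Psmb10 over Psmb7 ratio also reversed under some alternatives, given last. The other reversals were of values near 0 in LPS+DMA against PBS, where no gene of the set passed. With TPM scaling H2-K1 gave -0.12, Tap2 -0.075 and Tapbp -0.11, and voom gave -0.12, -0.081 and -0.11 for the same genes. Scaling to the 75th percentile gave -0.0209 for H2-K1 and -0.0168 for Tapbp, and library weights -0.0893 and -0.035. B2m gave 0.024 with the forebrain minus cerebellum covariate, 0.16 with the choroid plexus and red blood cell covariates and 0.0479 without libraries with cerebellar signal. In females only H2-K1 gave -0.0833, Tapbp -0.0364 and H2-T23 0.27, and in males only B2m gave 0.19, Tap1 0.0674 and Tap2 -0.0916. With a library left out the ranges in this comparison were -0.29 to 0.11 for B2m, -0.0401 to 0.40 for H2-D1, -0.11 to 0.13 for H2-K1, -0.33 to 0.0493 for H2-T23, -0.22 to 0.00998 for Tap1, -0.0042 to 0.13 for Tap2 and -0.0304 to 0.0623 for Tapbp. In LPS against PBS H2-T23 gave -0.73 with choroid plexus and red blood cell covariates and -0.15 in males only, and -0.0697 to 0.22 with a library left out. The Psmb10 over Psmb7 ratio of LPS+DMA to LPS gave 0.0473 with the mean of 14 core genes below it, and -0.21 to 0.12 with a library left out.

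Same-numbered libraries of a sex did not deviate together in general, with correlations of -0.07 to 0.45, so the numbers do not pair the samples. With sex and number as a replicate block 4 of the 9 genes passed in LPS+DMA against LPS and 0 in the other comparisons. Over all 19571 tested genes that fit called 1173 higher and 867 lower in LPS+DMA against LPS. The sex difference and the ratio tests kept their side of the threshold under the alternatives run. For the ratios this says little. With a library left out, the exact permutation test has too few arrangements to reach the threshold whatever the values. Read depth limits Nlrc5, Psmb9 and Tap1 most.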
